A study of Mus musculus with 4 samples.

Results

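The Rhox genes are a family of homeobox genes, which encode DNA-binding transcription factors, gathered in 1 cluster on the mouse X chromosome and expressed mainly in testis, epididymis, ovary and placenta. Of these, Rhox5, Rhox8, Rhox10 and Rhox13 were followed here by their gene symbols among the 43998 entries of the deposited abundance table. Each symbol had a single entry of its own. Rhox10 and Rhox13 were taken as germ cell members of the family, and Rhox5 and Rhox8 as members of the Sertoli cells, the somatic cells that nurse the germ cells inside the seminiferous tubule.

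The samples were 4 RNA-seq libraries of testicular cells from C57BL/6 mice at postnatal day 4, selected with magnetic beads against CD90.2 (THY1), a surface antigen by which early spermatogonia are enriched. In 2 libraries the cells came from control mice and in 2 from mice with impaired retinoic acid signalling in the germ cells. The labels name neither the allele nor the promoter behind the impairment, so the modified gene could not be checked, and they do not say whether libraries came from separate or pooled animals. The table gives 1 combined RPKM (reads scaled to transcript length and sequencing depth) for each genotype, so every gene has 1 control and 1 mutant value and no spread between replicates. No test, SD or p-value could be computed, and all differences below describe these combined values.

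Several roles of the 4 genes are known. Rhox10 is expressed in spermatogonia and promotes the formation of spermatogonial stem cells from their precursors after birth. Rhox13 is transcribed in germ cells before meiosis, where the RNA-binding protein NANOS2 holds back its translation in the fetal testis, and its loss disturbs the first wave of spermatogenesis. Rhox5, first described as Pem, is an androgen-dependent gene of Sertoli cells that favours germ cell survival, and it is also active in placenta and embryonic stem cells. Rhox8, first described as Tox, is expressed in the somatic cells of the gonads and is likewise a Sertoli cell gene in testis. Silencing of the cluster by DNA methylation is a known control of these genes outside the cells that express them.

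Of the members, 3 had higher mutant than control values and Rhox8 had a lower one, and none reached 2-fold. The germ cell members were by far the more abundant: Rhox13 and Rhox10 had the highest and second highest values of all 40 Rhox entries in both genotypes. The Sertoli cell members, both resting on few reads, did not share a direction. Rhox8 was lower in the mutant, as were all 23 measured Sertoli cell markers, whereas Rhox5 was higher, with a ratio between genotypes in the middle of the germ cell genes. These directions depend on the scale. With the mutant values rescaled so that germ cell identity genes centre on 0, Rhox13 lay below 0 (-0.39 on the log2 scale). Rhox10 and Rhox5 were then at about 0 (-0.01 and 0.001). With Sertoli markers centred on 0, Rhox8 lay above it (0.21).

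The sequences before the transcription starts are shown first, because the members differ in how well the deposited entry fits an annotated start. The stretches below are the 250 bases upstream of the RefSeq start on GRCm38.p6, all on the plus strand, in lower case. Capitals mark matches on either strand to AGATAA, a motif of GATA factors, of which there was 1, upstream of Rhox13. Sequences were available for 3 of the 4 members.
Rhox10 (chrX:38066225-38066474): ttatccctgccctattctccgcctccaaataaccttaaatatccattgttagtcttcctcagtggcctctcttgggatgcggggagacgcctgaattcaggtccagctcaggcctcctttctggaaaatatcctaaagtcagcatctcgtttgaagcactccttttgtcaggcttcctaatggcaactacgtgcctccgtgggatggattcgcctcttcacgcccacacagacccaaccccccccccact
Rhox13 (chrX:38120590-38120839): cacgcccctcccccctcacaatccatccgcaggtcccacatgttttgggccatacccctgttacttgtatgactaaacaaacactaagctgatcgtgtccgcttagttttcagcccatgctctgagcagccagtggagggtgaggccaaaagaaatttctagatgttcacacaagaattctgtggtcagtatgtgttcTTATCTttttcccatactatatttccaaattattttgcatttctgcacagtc
Rhox5 (chrX:37754358-37754607): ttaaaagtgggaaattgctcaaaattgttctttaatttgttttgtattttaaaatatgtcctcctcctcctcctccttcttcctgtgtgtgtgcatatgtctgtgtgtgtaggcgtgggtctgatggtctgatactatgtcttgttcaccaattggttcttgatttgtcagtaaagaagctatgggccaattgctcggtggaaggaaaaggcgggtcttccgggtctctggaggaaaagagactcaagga
For Rhox10 the start of the deposited entry, 38066475, was the RefSeq start itself. The deposited Rhox13 entry began 379 bases inside the RefSeq gene. The deposited Rhox5 entry began 50234 bases downstream of the RefSeq start, at 37804842, so the Rhox5 stretch shown is that of a distant upstream start. Rhox5 is known to use a proximal and a distal promoter, and a value per gene does not tell which was in use.

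The hexamer AGGTCA, a core site of retinoic acid receptors, had no match in any of these 3 stretches on either strand, nor did its common variant, AGTTCA. Among 32851 RefSeq start windows, 24.2% held at least 1 of these in the same 250 bases. The GATA motif found upstream of Rhox13 was present in 9.99% of all windows. The dinucleotide CG, the target of DNA methylation, occurred 8 times upstream of Rhox10 and 4 times each upstream of Rhox13 and Rhox5, beside a median of 6 over all windows. Such matches describe letters and do not show binding.

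Rhox13 (XLOC_040199, chromosome X, 38121219 to 38129967, a gene of 3 exons on the plus strand in GENCODE M21) was at 15.4 RPKM in control against 18.3 RPKM in mutant. The mutant value was thus 1.19 times the control value, and the log2((mutant + 1)/(control + 1)) difference was 0.24. The low values of the table step in whole reads, and by these steps the 2 Rhox13 values stood for about 584 control reads (exact 95% Poisson interval 538 to 633) and 700 mutant reads (649 to 754). Counting error alone gave a 95% interval of 1.07 to 1.33 for the ratio, which does not cover variation between animals or libraries.

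Rhox10 (XLOC_040197, chromosome X, 38066475 to 38071691, 3 exons, plus strand) had the largest log2 difference of the 4. It was at 8.50 RPKM in control against 13.4 RPKM in mutant, a ratio of 1.57 with a counting interval of 1.35 to 1.84. About 269 control reads (238 to 303) and 424 mutant reads (385 to 466) stood behind these values. The log2 difference of 0.60 exceeded that of 87.8% of the 16473 genes with 1 symbol and at least 1 RPKM in one genotype or both. Among 5246 genes within 2-fold of its mean level, the central 80% of differences ran from -0.81 to 0.61, so Rhox10 lay close to the upper edge of genes of its abundance. Rhox13 was less extreme, above 68.5% of all genes, and inside the range of -0.79 to 0.54 for genes of its level. As Rhox10 differed more, the level of Rhox13 went from 1.81 times that of Rhox10 in control to 1.37 times in mutant.

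**Figure D1:**
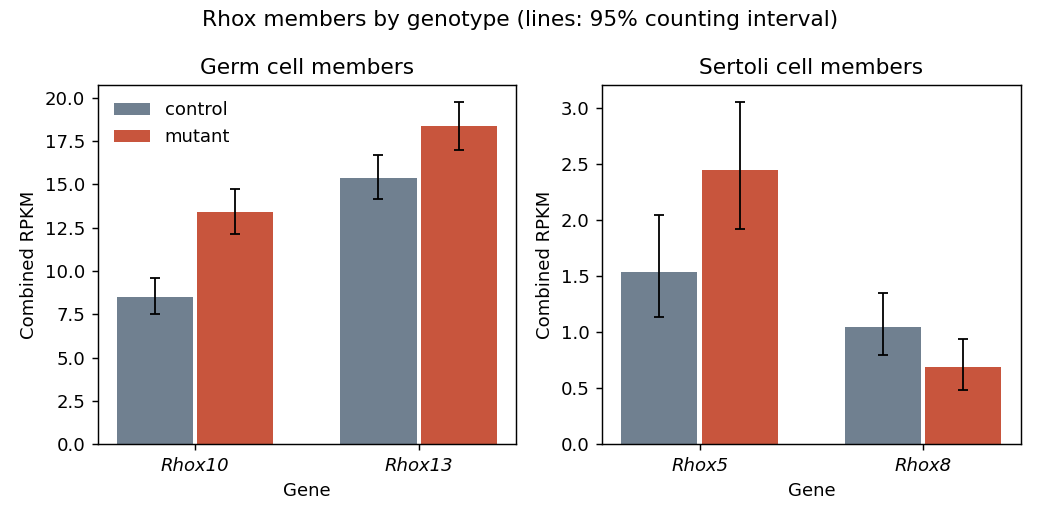
Combined RPKM (y axis, from 0) of the 4 Rhox members in control and mutant, with germ cell members on the left and Sertoli cell members on the right on a smaller scale; vertical lines are 95% intervals for counting error only. Rhox10, Rhox13 and Rhox5 are higher in the mutant as deposited and Rhox8 is lower. With germ cell genes rescaled to 0, Rhox13 falls below 0 and Rhox10 and Rhox5 are at about 0. With Sertoli markers at 0, Rhox8 rises above it.

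Rhox5 (XLOC_040194, chromosome X, 37804842 to 37808876, 4 exons, plus strand) was a low-level gene at 1.53 RPKM in control against 2.44 RPKM in mutant. These values stood for about 48 control reads (35 to 64) and 76 mutant reads (60 to 95), if the longer of its annotated transcripts was counted. The ratio of 1.59 was as large as that of Rhox10, but its counting interval, 1.09 to 2.32, was wider. On the log2(RPKM + 1) scale, which understates differences of low genes, the difference was 0.44. It lay inside the central 80% (-0.55 to 0.77) of 4423 genes within 2-fold of its mean level.

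Rhox8 (XLOC_041496, chromosome X, 37874778 to 37878944, 4 exons, minus strand) was the lowest of the 4 at 1.04 RPKM in control against 0.690 RPKM in mutant. It passed the minimum of 1 RPKM through its control value alone, so the minimum itself favours a lower mutant value. About 59 control reads (45 to 76) and 39 mutant reads (28 to 53) gave a ratio of 0.661, with a counting interval of 0.424 to 0.995, and a log2 difference of -0.27. Genes within 2-fold of its level had a central 80% of -0.48 to 0.77, with Rhox8 inside it. In a check of every 50-base stretch of the GENCODE transcripts, 9.87% of those of Rhox8 also occurred in transcripts of other genes, 108 in number, whereas none of those of Rhox5, Rhox10 or Rhox13 did. The part that reads from such shared stretches had in the Rhox8 values was not tested.

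Of 16473 genes, 4.40% were at least 2-fold higher and 4.35% at least 2-fold lower in the mutant, and 0 of the 4 members were in either class. Here and for every list, 2-fold is read on the log2(RPKM + 1) scale, so a scarce gene can have a plain RPKM ratio beyond 2 and not be counted. In 50.4% of genes the mutant value lay above control by any amount, as it did for 3 of the 4 members, and it lay below in 49.6%. With so few genes these shares describe the members and do not set them apart from other genes. The mean log2 difference was 0.42 for Rhox10 and Rhox13 and 0.08 for Rhox5 and Rhox8, so the germ cell members exceeded the Sertoli cell members by 0.33. That gap was 0.05 with germ cell genes rescaled to 0 and 0.65 with Sertoli markers rescaled to 0. These shifts come from the added constant, which weighs differently on low and high genes. On plain log2 ratios the gap was 0.42, which no single factor on the mutant column can change. The gap also hides the split of the second pair: Rhox5 was at 1.47 times the level of Rhox8 in control and at 3.54 times in mutant. Because the 4 genes are not replicates of a cell type, no test of the gap was made.

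**Figure D2:**
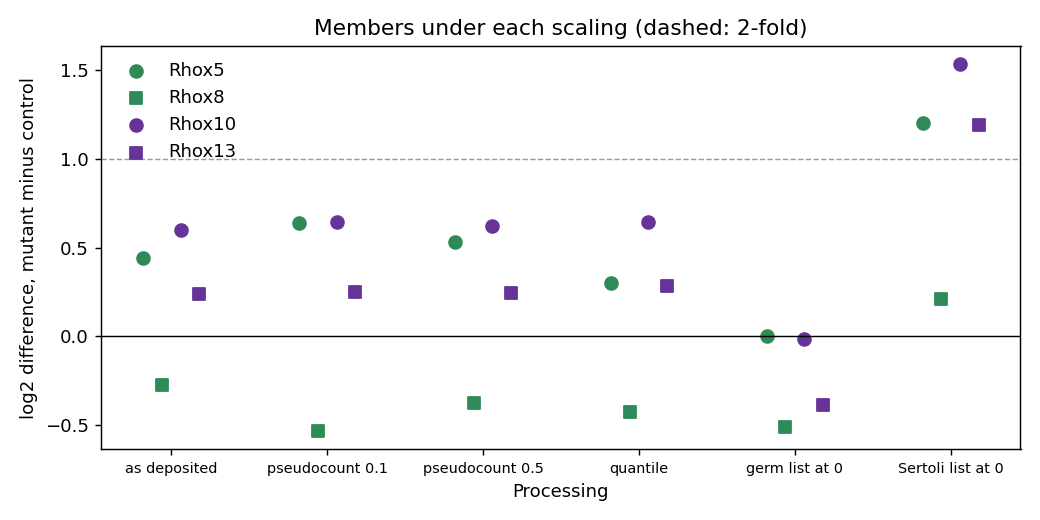
Log2 difference, mutant minus control (y axis), of each member under the deposited scale and 5 other ways of processing (x axis). Rhox8 stays below the other 3 members in each of the 6, while the position against 0 changes with the rescalings. With the germ cell list at 0, Rhox10 is at about 0 (-0.01) and Rhox13 drops to -0.39. With the Sertoli list at 0, Rhox8 rises to 0.21.

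Markers of the cell types were read from the same values, and where a pair of RPKM values is given without labels the control value comes first. Of 24 listed Sertoli cell genes 23 were measured, 0 were higher and 6 were at least 2-fold lower, with a median log2 difference of -0.87 and a summed RPKM of 1048 in control and 502 in mutant; none was at 0. The abundant ones were Clu (clusterin) at 188 and 81.8 RPKM, Ctsl (cathepsin L) at 176 and 87.9 RPKM, Defb19 (a beta-defensin) at 148 and 62.0 RPKM, and Cst12 (a cystatin) at 101 and 50.4 RPKM. Of these 4, Clu and Defb19 were among the 6 past 2-fold. As plain ratios the 23 genes ran from 0.404 to 0.715 with a median of 0.504. The Rhox8 ratio of 0.661 was above 22 of them and below that of Erbb4 (0.715), while the Rhox5 ratio lay above all 23. The counting interval of Rhox8, 0.424 to 0.995, covered most of the range of the list, so its rank there is not resolved. The 4 scarcest measured Sertoli markers were chosen after their values were seen, and all were more abundant than Rhox8. Among them were Erbb4 (a neuregulin receptor) at 2.36 and 1.69 RPKM and Fshr (the FSH receptor) at 2.50 and 1.25 RPKM. The others were Sox9 (a transcription factor of Sertoli cells) at 2.19 and 1.10 RPKM and Gdnf (the growth factor of stem spermatogonia) at 1.85 and 1.11 RPKM. In bulk samples fewer cells of a type and less RNA per cell cannot be told apart, and the part of Sertoli cell content in the Rhox5 and Rhox8 values was not tested.

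Germ cell identity genes went the other way. All 20 listed genes were measured and lay above 0, with 1 at least 2-fold higher, 0 lower by 2-fold, a median of 0.61 and a summed RPKM of 1179 in control and 1642 in mutant; by construction this median is 0 when the list itself sets the scale. Dazl, an RNA-binding protein of germ cells, was at 274 and 353 RPKM, Mael (a piRNA pathway factor) at 159 and 219 RPKM, Tex19.1 at 164 and 203 RPKM and Ddx4 (VASA) at 88.6 and 114 RPKM. Piwil4, a PIWI protein of perinatal germ cells, was the 1 past 2-fold on the log2(RPKM + 1) scale, at 5.94 and 14.7 RPKM. The scarcer Dppa3 (Stella), at 1.30 and 3.50 RPKM, had the highest plain ratio of the list, 2.69, with a log2 difference of 0.97. Tdrd6 (a tudor protein) passed the minimum through its mutant value alone. Their ratios ran from 1.03 to 2.69 around a median of 1.59. Rhox10 had a ratio above 9 and below 11 of the 20 genes, Rhox5 above 11 and below 9, and Rhox13 above 1 and below 19. The counting interval of Rhox5, 1.09 to 2.32, covered most of the range of the list, so its rank there is not resolved. Rhox8 was below all 20.

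**Figure D3:**
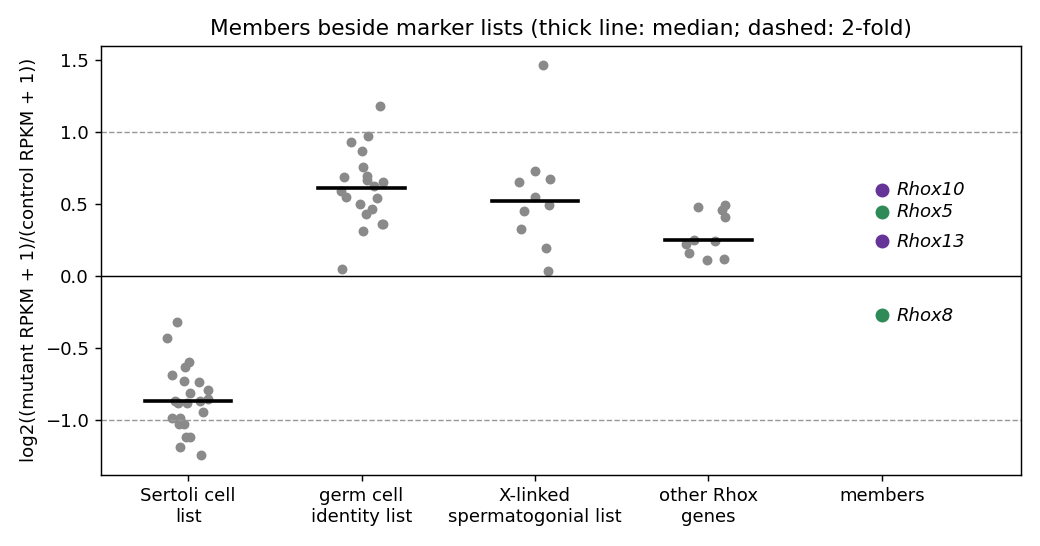
Log2 difference of each gene (points, y axis) in the Sertoli cell, germ cell identity and X-linked spermatogonial lists, in the other Rhox genes at 1 RPKM or more, and in the 4 members, with medians as thick lines and 2-fold as dashed lines. Rhox10, Rhox5 and Rhox13 sit among the germ cell points and Rhox8 lies just above the highest Sertoli point of -0.32. By plain ratio Rhox13 is above only 1 of the 20 germ cell genes, and Rhox8 (0.661) is below the Sertoli gene Erbb4 (0.715). Rescaling shifts all groups. Rhox13 falls below 0 and Rhox10 is at about 0 when the germ cell list is centred on 0. Rhox8 rises above 0 when the Sertoli list is.

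Other cells of the testis were also represented. All 8 macrophage genes, 4 measured Leydig cell genes, 4 peritubular myoid genes and 4 interstitial fibroblast genes were lower in the mutant, with medians of -1.43, -1.39, -0.70 and -0.84. The 4 endothelial genes had a median of -0.001. Macrophage genes summed to 3605 RPKM in control and 1251 in mutant, with none at 0.

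The other Rhox genes placed the members within their cluster, which spanned 1.09 Mb of chromosome X from 37213804 to 38306028. It held 40 entries, 39 with a single symbol and 1 that pooled Rhox2c with Rhox3c. Of the 39, 14 reached 1 RPKM in at least one genotype and 13 in both, while 6 of the 40 entries were listed at 0 in both genotypes. Of the 14, 13 lay above 0 and only Rhox8 lay below, with a median of 0.24 and 0 past 2-fold. Rhox8 passed the minimum through its control value alone, which favours a lower mutant value. The 13 entries that reached 1 RPKM in both genotypes all lay above 0. Over all genes 50.4% lay above 0, 4.40% were at least 2-fold higher and 4.35% at least 2-fold lower. Several of the 14 are Rhox2 copies whose reads can belong to more than 1 copy. Of the 50-base stretches of Rhox7a and Rhox7-ps1, 58.8% and 43.5% also occurred in other genes. The 13 are thus not independent. With germ cell genes rescaled to 0 the counts of the 14 were 2 above and 12 below with a median of -0.19. Quantile normalization gave 12 above and 2 below. With Sertoli markers rescaled to 0 all 14 lay above and 9 were past 2-fold. Without a minimum, 21 of 39 entries lay above and 12 below 0, many of them with a few reads.

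After Rhox13 and Rhox10 the most abundant were Rhox7a at 7.00 and 8.31 RPKM, the pseudogene Rhox2-ps at 5.53 and 8.08 RPKM and Rhox1 at 5.14 and 7.41 RPKM. Rhox7-ps1, a second pseudogene, was at 1.45 and 1.90 RPKM. Rhox1, at one end of the cluster, thus had a ratio of 1.44, between those of Rhox13 and Rhox10. An entry named RP23-457N24.12, from 37676370 to 37679555, has the same bounds as Rhox7-ps2 in GENCODE M21 and was at 5.02 RPKM in control against 10.6 RPKM in mutant. Its log2 difference of 0.94 was larger than that of any Rhox entry tested, but its transcript of 322 nt is short and 43.6% of its 50-base stretches occur in other genes.

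The multicopy groups differed in level and, as deposited, in the direction of their sums. All 7 separately listed Rhox2 copies were higher in the mutant as deposited and with Sertoli markers rescaled to 0, against 6 with quantile normalization and 2 with germ cell genes rescaled to 0. As deposited they had a sum of 10.8 RPKM in control against 14.1 RPKM in mutant and a ratio of 1.31. Rhox2d was at 2.47 and 2.75 RPKM, Rhox2a at 2.18 and 2.78 RPKM, Rhox2g at 1.63 and 2.70 RPKM, Rhox2f at 1.50 and 2.32 RPKM, Rhox2h at 1.65 and 1.86 RPKM and Rhox2b at 1.30 and 1.57 RPKM. These copies are near-identical: between 44.7% and 100% of the 50-base stretches of a Rhox2 transcript occurred in other genes, so a read can belong to several copies and the sum is more certain than its parts. The 8 Rhox3 and 8 Rhox4 entries were scarce, with highest values of 0.211 and 0.280 RPKM. As deposited, the Rhox4 entries summed to 0.959 RPKM in control against 0.488 RPKM in mutant, a ratio of 0.509. The Rhox3 entries summed to 0.375 and 0.497 RPKM. Both sums rest on low values, and reads of these copies can also belong to several copies. Rhox6, known from placenta, was at 0.244 and 0.264 RPKM, and its close relative Rhox9 at 0.330 and 0.363 RPKM. Rhox11 was listed at 0 in both genotypes, and Rhox12 was at 0.167 and 0.0998 RPKM, so these 2 neighbours of Rhox10 and Rhox13 were far below them.

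**Figure D4:**
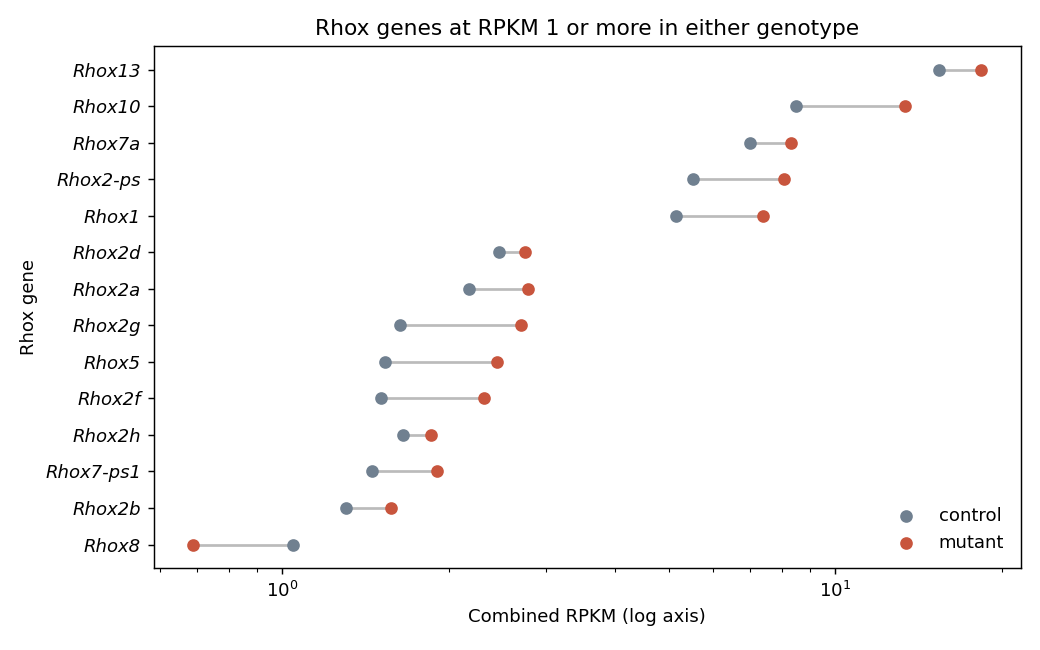
Combined RPKM (x axis, log scale) in control and mutant for the 14 Rhox genes at 1 RPKM or more in either genotype, ordered by mean level. The mutant point lies to the right for 13 genes, several of them Rhox2 or Rhox7 entries that can share reads. It lies to the left for Rhox8, which reached 1 RPKM in control alone. With germ cell genes rescaled to 0 only 2 of the 14 differences remain above 0. With Sertoli markers rescaled to 0 all 14 are above it.

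Genes outside the family were read for comparison, within the cluster span and within 500 kb on either side. Zbtb33 and Tmem255a lay inside the span, with log2 differences of -0.05 and -0.21. In all, 22 such genes had an RPKM of 1 or more, of which 9 lay above and 13 below 0. Their median of -0.10 became 0.78 with Sertoli markers rescaled to 0. The 4 most abundant were all lower in the mutant: Rpl39 (a ribosomal protein) at 339 and 231 RPKM, Slc25a5 (the mitochondrial ADP/ATP carrier) at 192 and 115 RPKM, Ndufa1 (a subunit of respiratory complex I) at 121 and 71.3 RPKM and Lamp2 (a lysosomal membrane protein) at 91.7 and 65.9 RPKM. Another 2 were at least 2-fold higher, both short or scarce: Gm24809 at 1.03 and 3.08 RPKM, and Gm14541, which was listed at 0 in control. Over all 626 X-linked genes outside the family the median was 0.07, with 340 above and 286 below 0. Genes listed for X-linked spermatogonial expression lay above 0 for 10 of 10 measured of 14 listed. Their median of 0.52 became -0.08 with germ cell genes rescaled to 0. Nkrf, with a log2 difference of 0.32, is counted both in this list and among the 22 genes near the cluster. Taf7l, a TFIID subunit paralogue, was at 124 and 207 RPKM, Nxf2 (an RNA export factor) at 72.3 and 114 RPKM, Usp26 (a deubiquitinase) at 61.5 and 90.5 RPKM and Tex11 (a meiotic factor) at 36.7 and 50.4 RPKM. Sox3, a factor of progenitor spermatogonia, was the 1 past 2-fold at 3.47 and 11.3 RPKM.

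**Figure D5:**
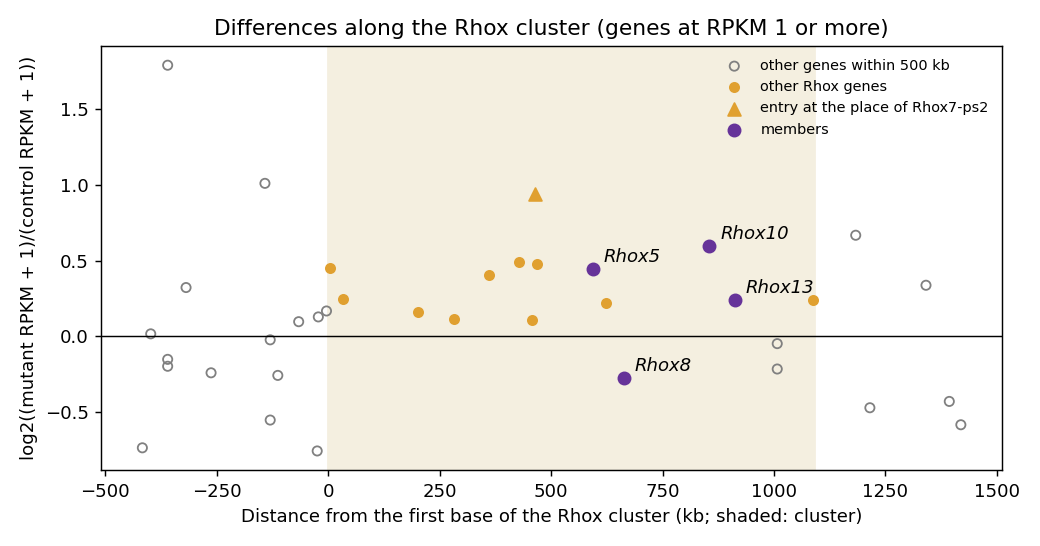
Log2 difference (y axis) of genes at 1 RPKM or more against their distance in kb from the first base of the Rhox cluster (x axis; the cluster is shaded). Rhox points run along the cluster above 0 except for Rhox8. Genes outside the family, within or beside the cluster, lie on both sides of 0 with a median of -0.10. With germ cell genes rescaled to 0, 12 of the 14 Rhox points fall below 0.

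Genes with a known link to the members or their regulation were read from lists. Of 5 androgen-responsive genes of Sertoli cells 3 were measured, 2 above 0 and 1 at least 2-fold lower. Eppin (a protease inhibitor) was at 1.38 and 2.85 RPKM, and Cldn3 (claudin-3) at 1.32 and 2.81 RPKM. Serpina5, a serpin, was at 14.4 and 6.10 RPKM. Gata4, a factor of the somatic gonad that can act on the Rhox5 proximal promoter, was at 25.6 and 14.4 RPKM. The reported RHOX5-regulated genes Unc5c (a netrin receptor) and Ins2 (an insulin gene) were both below the minimum, the former at 0.320 and 0.258 RPKM, the latter at 0.517 and 0.295 RPKM.

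Of 12 genes for DNA methylation and silencing of the cluster 11 were measured, 6 above 0 and 5 below, with 1 at least 2-fold higher and a median of 0.26 (-0.36 with germ cell genes rescaled to 0). The exception was Dnmt3l, the cofactor of de novo methylation in germ cells, at 0.738 RPKM in control against 4.19 RPKM in mutant, which passed the minimum through its mutant value alone. Of its partners, Dnmt3a was at 40.0 and 51.6 RPKM and Dnmt3b at 14.7 and 18.0 RPKM. The maintenance factors were lower, Dnmt1 at 99.2 and 78.8 RPKM and Uhrf1 at 118 and 77.1 RPKM, while Ehmt2, the H3K9 methyltransferase G9a, was at 97.2 and 127 RPKM and Setdb1, another such enzyme, at 46.5 and 58.1 RPKM. Nanos2, the translational repressor of Rhox13, was at 3.37 RPKM in control against 5.35 RPKM in mutant.

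For the stem cell step in which Rhox10 acts, 18 of 18 genes were measured, with 8 above and 10 below 0, 2 at least 2-fold higher, 2 at least 2-fold lower and a median of -0.15. Zbtb16 (PLZF) was at 24.4 and 53.7 RPKM and Upp1 (uridine phosphorylase) at 7.07 and 20.8 RPKM, against Gfra1 (the GDNF co-receptor) at 35.9 and 14.2 RPKM and Sall4 at 72.3 and 30.3 RPKM. The most abundant was Dmrt1 at 93.0 and 124 RPKM, and the GDNF target Etv5 was at 58.6 and 36.9 RPKM. Pax7 and Eomes, both among the 10 below 0, passed the minimum through their control values alone. Retinoic acid responsive genes lay below 0 for 8 of 8 measured of 10 listed, 5 of which were at least 2-fold lower, and the list median was -1.02. One of the 5, Cyp26a1 (an enzyme that degrades retinoic acid), was at 1.84 and 0.409 RPKM. It passed the minimum through its control value alone, which favours a lower mutant value. The most abundant gene of the list was Dhrs3 at 57.6 and 21.2 RPKM, and Cyp26b1 was at 8.02 and 3.41 RPKM, both at least 2-fold lower. Rec8, at 9.68 and 8.14 RPKM, was not past 2-fold. As deposited, the differences of Rhox10 and Rhox13 stood opposite in sign to those of Stra8 (45.2 and 8.60 RPKM) and Kit (27.3 and 9.65 RPKM). With germ cell genes rescaled to 0, Rhox13 lay below 0, as did Stra8 and Kit, while Rhox10 was at about 0 (-0.01).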

How the data were processed

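Libraries were grouped by genotype from the sample titles. The submitters' processing notes name TopHat2 2.0.11 and GRCm38; for the counting program, the annotation and the way libraries were combined, the sources used here give nothing. Per the file headers, the authors deposited RPKM values, 1 column for both control and 1 for both mutant libraries. Totals per library are thus unknown. From the steps of low values (884 control and 900 mutant values up to 10 reads, of which 90.5% and 95.3% lay within 0.1 of a whole read) the depth was near 55.9 M control and 57.3 M mutant reads. Reads of members were computed from these steps and GENCODE M21 transcript lengths, less 197 nt and 210 nt; intervals cover counting error only.

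Differences are log2((mutant + 1)/(control + 1)), which understates low genes. Entries with several symbols (981) were left out, as were genes under 1 RPKM in both genotypes; 16473 remained. Columns sum to 1005894 and 901449 RPKM. The members and lists were chosen with earlier results of these data known; 1 gene of a list is not reported here and was left out of its counts. Named genes are the members, other Rhox entries, up to 4 most abundant genes of a list or of the neighbours, and list genes past 2-fold where 5 or fewer. No gene is named from the macrophage, Leydig cell, peritubular myoid, interstitial fibroblast and endothelial lists. Rhox entries under the minimum, Gata4, Nanos2, Dnmt3a, Dnmt3b, Esx1, Lhx2, Lhx8, Dppa3, Tdrd6, Pax7, Eomes, Unc5c, Ins2 and the entry RP23-457N24.12 fall outside this rule and were chosen after their values were seen. The same holds for Zbtb33, Tmem255a and Nkrf. No genes of similar pattern are named, since 2 values give only a direction. Alternatives were pseudocounts of 0.1 and 0.5, quantile normalization, rescaling to germ cell or Sertoli lists, no minimum and 5 RPKM. Calculations used Python 3.11.15, pandas 2.3.3 and scipy 1.17.1 and were tested on simulated data.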

Additional observations from a re-analysis of the deposited data

How the results depend on the processing

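No paired analysis was possible because both libraries of a genotype share 1 column; for the same reason leaving out a replicate was not run. With quantile normalization all 4 members kept their direction and none passed 2-fold. Pseudocounts of 0.1 and 0.5 could not change either outcome. A pseudocount leaves the sign as it is and only shrinks a difference, and no member had a plain ratio beyond 2-fold. Rescaling the mutant column to the germ cell list (a factor of 0.629) moved Rhox10 to -0.014 and Rhox13 to -0.39; rescaling to the Sertoli list (a factor of 1.98) moved Rhox5 to 1.21, Rhox10 to 1.53 and Rhox13 to 1.19, and took 9 of 14 Rhox genes past 2-fold. These shifts follow from the factor: the median of all genes moved to -0.55 and 0.89. The median of the Rhox genes was 0.35 with a pseudocount of 0.1, -0.19 and 1.14 with the germ cell and Sertoli rescalings, 0.017 with no minimum (39 entries) and 0.45 at 5 RPKM or more (5 entries). All genes past 2-fold numbered 1417 higher and 1107 lower with a pseudocount of 0.1, 378 and 3146 with the germ cell rescaling and 6653 and 173 with the Sertoli rescaling. At about 39 to 76 reads, the values of Rhox5 and Rhox8 are limited by depth.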

Other observations

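Other homeobox genes of gonad and germ line were split. Of 18 listed genes 12 were measured, 6 above and 6 below 0, with a median of -0.02. Pou5f1, the pluripotency factor OCT4, was the 1 past 2-fold on the log2(RPKM + 1) scale, lower in the mutant at 40.4 and 17.1 RPKM (control first), while Tgif2 was at 19.9 and 21.3 RPKM, Pknox1 at 12.1 and 15.6 RPKM and Six4 at 4.32 and 9.29 RPKM. By plain RPKM ratio Six4 (2.15) and Lhx8 (3.98, at 0.332 and 1.32 RPKM) were also beyond 2-fold higher, and Lhx2, at 5.99 and 2.99 RPKM, was just beyond 2-fold lower. Esx1, another X-linked homeobox gene of the testis, was at 1.28 RPKM in control against 0.987 RPKM in mutant. Lhx8 passed the minimum through its mutant value alone and Esx1 through its control value alone.

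The RefSeq start window of Rhox1 holds AGGTCATAGGTCA on the transcribed strand, a direct repeat of the receptor hexamer AGGTCA with 1 base between, beginning at base 36 of the transcript. The pattern AGGTCANAGGTCA, on either strand, occurs in 13 of 32851 windows of the same length (0.0396%). It was noticed after the window was read, and neither binding nor a role in the Rhox1 values was tested.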
